A study of Rattus norvegicus with 16 samples.

Results

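The genes described here are 7 members of the zinc-handling system: the metallothioneins Mt1, Mt2A and Mt3, the metal-sensing transcription factor Mtf1, the zinc exporter Slc30a1 and the metal importers Slc39a8 and Slc39a14. They were chosen by symbol, through the RefSeq transcript that the array design gives for each probe, and make up 7 of the 16678 gene symbols that could be given to probes, on 9 of 21229 named probes. Mtf1 has 3 probes and the others 1 each, and the brightest probe of each gene stands for it. Lung and adipose tissue of 8 male Brown Norway rats, a strain prone to allergy, were measured with one-color Agilent arrays. The treatment protocol gives their age as 7 weeks. The 5 HDM rats had weekly subcutaneous doses of 45 µg house dust mite (HDM) with aluminum hydroxide as adjuvant over 3 weeks, and then 120 µg HDM in saline into the nose 3 times a week over another 3 weeks. The 3 control rats received saline with the same adjuvant under the skin and saline alone into the nose, so that the adjuvant, the injections and the intranasal dosing were shared by both groups. Each rat gave 1 lung array and 1 adipose array. The comparison asks how these genes differed between HDM rats and control rats in each of the tissues.

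Metallothioneins are small, cysteine-rich proteins that bind zinc and copper and buffer the free zinc of the cell. Mtf1 encodes the factor that senses zinc and switches on Mt1, Mt2A and Slc30a1 through short DNA elements in their promoters, and metallothionein genes are also known to respond to glucocorticoids and to cytokines of the acute phase. The SLC30 family carries zinc out of the cytosol, either out of the cell or into vesicles, and the SLC39 family carries it in. Zinc is known to support the barrier of the airway epithelium and the work of immune cells.

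The promoters of the members are shown because the DNA element read by Mtf1 differs in number between them. The RefSeq promoter table (GRCr8 assembly) held entries for 6 of the 7 members, all but Slc39a14, and the 250 bases before the annotated start are given 5′ to 3′ on the strand of the gene. The core of the metal response element was searched as TGCACNC and TGCGCNC on both strands. Matches are in capitals and none of them overlaps another in the stretches printed.
Mt1, chr19:10832976-10833225, minus strand: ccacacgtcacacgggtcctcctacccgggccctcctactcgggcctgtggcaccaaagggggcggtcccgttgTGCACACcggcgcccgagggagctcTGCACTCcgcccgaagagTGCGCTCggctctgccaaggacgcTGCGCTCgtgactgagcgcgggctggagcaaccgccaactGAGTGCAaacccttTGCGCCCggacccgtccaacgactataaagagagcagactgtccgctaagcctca
Mt2A, chr19:10838709-10838958, minus strand: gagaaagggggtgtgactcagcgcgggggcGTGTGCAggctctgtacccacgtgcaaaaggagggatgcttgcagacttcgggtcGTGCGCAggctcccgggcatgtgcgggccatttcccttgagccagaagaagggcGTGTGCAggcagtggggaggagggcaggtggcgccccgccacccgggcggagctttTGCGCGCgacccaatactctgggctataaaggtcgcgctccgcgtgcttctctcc
Mt3, chr19:10856081-10856330, minus strand: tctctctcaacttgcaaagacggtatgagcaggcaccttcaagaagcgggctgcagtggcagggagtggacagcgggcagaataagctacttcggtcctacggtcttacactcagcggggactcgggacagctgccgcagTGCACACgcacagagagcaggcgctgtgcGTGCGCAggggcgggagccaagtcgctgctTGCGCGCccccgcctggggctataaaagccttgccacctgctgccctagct
Slc30a1, chr13:106021769-106022018, plus strand: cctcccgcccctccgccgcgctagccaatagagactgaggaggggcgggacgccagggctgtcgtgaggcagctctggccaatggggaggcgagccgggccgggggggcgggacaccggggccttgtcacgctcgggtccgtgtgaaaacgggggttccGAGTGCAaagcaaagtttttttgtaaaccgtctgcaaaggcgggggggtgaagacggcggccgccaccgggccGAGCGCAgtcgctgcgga

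The promoter of Mt1 held 6 matches, that of Mt2A 4, that of Mt3 3 and that of Slc30a1 2. The match nearest to the start was separated from it by 48 bases in both Mt1 and Mt2A, by 44 in Mt3 and by 11 in Slc30a1. Among 33469 rat promoters of the same length, 20.6% held at least 1 match, 4.90% held 2 or more and 1.17% held 3 or more. A further step up, 0.266% held 4 or more and 0.0269% held 6 or more. The promoter of Mtf1 held 2 matches, and that of Slc39a8 held none, which says only that these letters are not in that window. The window of Slc39a8 (chr2:226929941-226930190) lies inside the gene span given below. That of Mtf1 (chr5:142346804-142347053) reaches past the start of its span. For these genes the promoter start thus differs from the start of the span. A match is a description of the sequence and not a measured site of binding.

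The metallothionein genes lie together on chromosome 19 of GRCr8, Mt1 at chr19:10831959-10832975, Mt2A at chr19:10837934-10838708 and Mt3 at chr19:10854676-10856080. Mtf1 lies at chr5:142347024-142391810, Slc30a1 at chr13:106022019-106025892, Slc39a8 at chr2:226845686-226992668 and Slc39a14 at chr15:51786517-51833260. These are the spans of the whole genes in the RefSeq annotation, exons and introns together.

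On each array 62.2% to 68.8% of the probes were well above background in lung and 51.0% to 60.3% in adipose tissue, and no probe of the zinc genes was saturated on any array. Signals are given as log2 values relative to the 75th percentile of the array, so that a value of 0 equals that percentile, and levels of different probes are not set against each other. With so few arrays per group, differences have wide errors. The lung arrays carried the lung epithelium markers (6 of 6 well above background on all 8 arrays, summed level relative to the percentile 1358 to 1536 in HDM rats and 1471 to 1655 in control rats) and the adipose arrays the adipocyte markers (6 of 6 on all 8 arrays, 1386 to 1890 and 1170 to 2030). The depot of the adipose tissue is not given in the labels. All 9 epididymis markers were well above background in the adipose tissue of control rat 1 and of HDM rat 1, where their log2 summed level was 12.21 and 11.82, and it was between -1.65 and 4.87 in the other 6 rats. Each tissue was on 1 slide, with HDM rats 1 to 4 in row 1 and HDM rat 5 with the 3 control rats in row 2.

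Mt1 and Mt2A had lower signals in the lungs of HDM rats than in those of control rats, without overlap between the groups. The differences were small, and neither passed the test across all probes. In the lungs of control rats 1, 2 and 3 the signal of Mt1 was 3.64, 3.64 and 3.84 on the log2 scale. In HDM rats 1 to 5 it was 3.18, 3.27, 3.41, 3.08 and 3.47, so that the highest HDM rat stayed below the lowest control rat. The control mean was 3.71 ± 0.12 (SD, n = 3), and the HDM mean was 3.28 ± 0.16 (SD, n = 5). The change of Mt1 was thus -0.43 on the log2 scale (SE 0.13, 95% interval -0.72 to -0.14), which is 1.34-fold lower. Its adjusted p from limma was 0.237, and the exact permutation test over the 56 splits of 8 rats gave p = 0.0179, two-sided, which is the smallest it can give.

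Mt2A, the main stress-inducible isoform beside Mt1, had lung signals of 3.40, 3.13 and 3.33 in control rats 1, 2 and 3. In HDM rats 1 to 5 the signals were 2.81, 2.70, 2.90, 2.56 and 3.02, again all below the lowest control rat. Mt2A changed by -0.49 (SE 0.14, 95% interval -0.80 to -0.18), 1.40-fold lower, with an adjusted p of 0.204 in limma. HDM rat 4 was the lowest and HDM rat 5 the highest of the HDM rats for both Mt1 and Mt2A. Since both messages come from similar genes, some hybridization of one to the probe of the other was not tested. In whole tissue, fewer cells that express a gene and less RNA per cell cannot be told apart.

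Mt3, the metallothionein best known from brain, was well above background on all 8 lung arrays but at a low and uneven signal. It ranged from -5.19 (HDM rat 4) to -3.02 (HDM rat 5) in HDM rats and was -4.28, -4.41 and -3.58 in control rats 1, 2 and 3. The groups overlapped throughout, and the log2 fold change of -0.05 (SE 0.46, 95% interval -1.11 to 1.00) leaves changes in both directions within its interval.

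The row of the slide bears on these values. HDM rat 5, the only HDM rat in the row of the control rats, differed from their mean by -0.24 for Mt1 and by -0.26 for Mt2A in lung. Since row 1 held no control rat, a fit with the row as a block gives these same values by its design. Such a fit rests on HDM rat 5 alone against the control rats. The summed level of 9 neutrophil markers in lung was 134 to 283 in HDM rats and 10.5 to 14.4 in control rats (8 to 9 of 9 well above background on each array), and 7 of the 9 were called higher, beside 0.482% of all probes. It thus moved with the group in the opposite direction to Mt1 and Mt2A. The 6 lung epithelium markers moved in the same direction as Mt1 and Mt2A, all with a lower mean in HDM rats. Their median log2 fold change was -0.18 and none was called, while 3 of the 6 (Ager, Cldn18 and Sftpb) were lower without overlap, beside 4.95% of all probes. The part of these markers in the result was not tested.

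**Figure D1:**
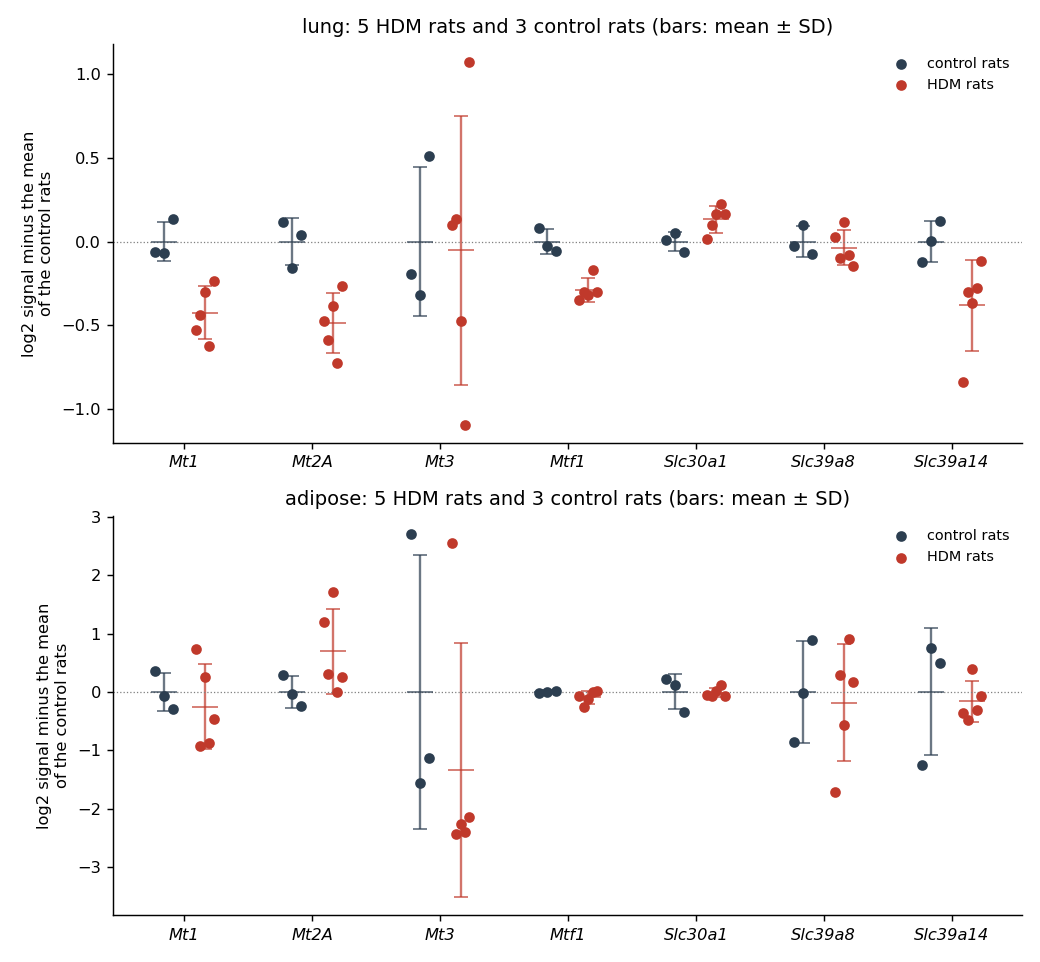
Log2 signal of the 7 members in each rat minus the mean of the 3 control rats, in lung (top) and in adipose tissue (bottom, wider axis). Each point is 1 rat and the bars are the mean ± SD of a group. In lung the points of Mt1, Mt2A and Mtf1 do not overlap between HDM and control rats, and in adipose tissue those of all 7 members do.

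Mtf1, the regulator of the metallothioneins, was also lower in the lungs of HDM rats with its brightest probe. Its lung signal was 0.44, 0.33 and 0.30 in control rats 1, 2 and 3. In HDM rats 1 to 5 it was 0.01, 0.06, 0.04, 0.19 and 0.06, without overlap. The difference was -0.29 (SE 0.10, 95% interval -0.51 to -0.07) with an adjusted p of 0.305 in limma. HDM rat 5 differed from the control rats of its own row by -0.30, which is as large as the whole difference.

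The other probes of Mtf1 disagreed with each other. The probe A_44_P1085442 gave -2.24, -2.27 and -2.34 in the lungs of control rats 1, 2 and 3 and values from -2.96 to -2.86 in HDM rats, a change of -0.61 (SE 0.09). It passed both thresholds (adjusted p 0.0266 in limma, 1.53-fold lower) but lost the call in 12 of 22 alternative settings, among them the block for the row (adjusted p 0.435) and leaving out any 1 rat other than HDM rat 3 (-0.64 to -0.59). The probe A_42_P810313 changed by -0.18 (SE 0.18, adjusted p 0.876) and its groups overlapped. In adipose tissue the probe A_44_P1085442 also separated the groups, with -2.24, -2.21 and -2.23 in control rats 1, 2 and 3 against values from -2.90 to -2.35 in HDM rats, a change of -0.42 (SE 0.19) that was not called (adjusted p 0.518). For the brightest probe the array design gives a predicted transcript of Mtf1, and for the other probes the curated one.

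**Figure D2:**
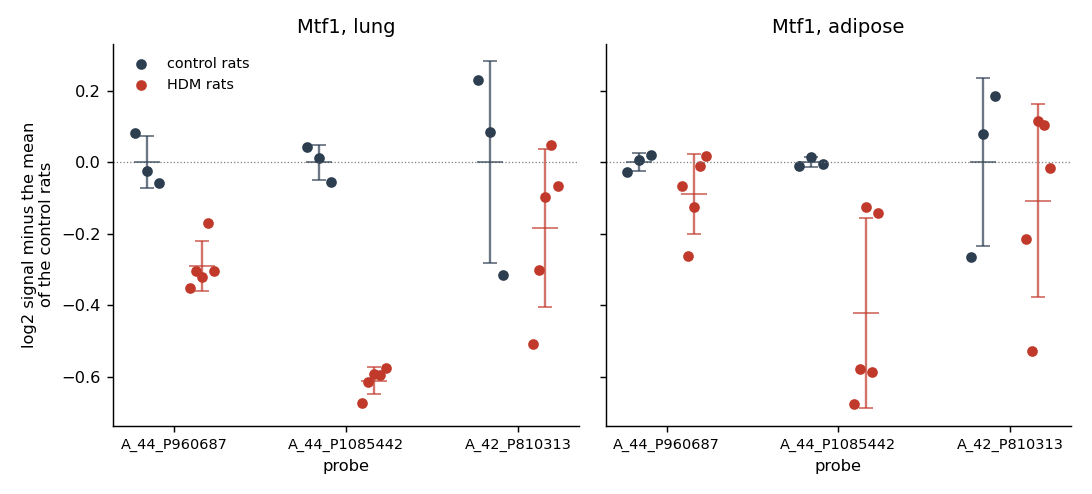
Log2 signal of the 3 probes of Mtf1 in each rat minus the mean of the 3 control rats, in lung (left) and in adipose tissue (right). Points are rats and bars are the mean ± SD of a group. The probe A_44_P1085442 lies lower in every HDM rat in both tissues, the brightest probe A_44_P960687 does so in lung, and the third probe overlaps between groups in both.

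Among the transporters, Slc39a14, a zinc and iron importer known from the acute phase response, had lung signals of -3.77, -3.65 and -3.53 in control rats 1, 2 and 3. In HDM rats 1 to 5 they were -4.49, -3.95, -4.02, -3.93 and -3.77, and the highest HDM rat (rat 5) lay just above the lowest control rat (rat 1). The difference was -0.38 (SE 0.17, 95% interval -0.77 to 0.01) with an adjusted p of 0.513. HDM rat 1 was the lowest of all, and without it the value was -0.27. HDM rat 5 differed from the mean of the control rats of its row by -0.12.

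Slc30a1, which exports zinc from the cell and is a known target of Mtf1, had lung signals of -0.91, -0.87 and -0.98 in control rats 1, 2 and 3 and of -0.90, -0.82, -0.75, -0.69 and -0.75 in HDM rats 1 to 5. A log2 fold change of 0.13 (SE 0.10, adjusted p 0.787) made it the only member with a higher mean in HDM rats in lung. Slc39a8, an importer of zinc and manganese that is strongly expressed in lung, ranged from 1.71 to 1.97 in HDM rats and from 1.78 to 1.96 in control rats. Its log2 fold change was -0.04 (SE 0.11), and the 95% interval from -0.28 to 0.21 excludes a change of 1.5-fold in either direction.

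In lung as a whole, 0 of the 7 members were called with their brightest probes, beside 0.855% of all 45598 probes. At an unadjusted p below 0.05 in limma there were 3 (Mt1, Mt2A and Mtf1), beside 10.2% of all probes. The methods' t-test gave 4, the fit without control rat 1 gave 2, and the fit with the rat as a random block over both tissues gave 1. The fit with the row as a block rests on HDM rat 5 alone and is not counted here. Mt1, Mt2A and Mtf1 were also the members whose groups did not overlap, beside 9.58% of all probes. All of them were lower in HDM rats, beside 4.95% of all probes that were lower without overlap. The median log2 fold change of the members was -0.29, and that of all probes was 0.00.

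In adipose tissue none of the members separated HDM from control rats with its brightest probe. Mt2A was the only member with a higher mean in HDM rats. Its signal was 4.96, 4.63 and 4.43 in control rats 1, 2 and 3. In HDM rats 1 to 5 it was 5.86, 4.99, 6.38, 4.67 and 4.93, so that HDM rats 1 and 3 lay well above the others and the remaining HDM rats lay among or just above the control rats. This gave a difference of 0.69 (SE 0.41, 95% interval -0.25 to 1.64) with an adjusted p of 0.636 in limma and p = 0.161 in the exact permutation test. The difference was positive in all 23 alternative settings, from 0.25 to 0.99, and was called in none of them. Within row 2, HDM rat 5 exceeded the mean of the control rats by 0.25. The summed level of the 9 neutrophil markers in adipose tissue was 4.40 to 10.5 in HDM rats and 0.891 to 2.14 in control rats. It was highest in HDM rat 3. Of the 9 markers, 5 to 7 were well above background on an HDM array and 3 to 6 on a control array. A higher mean in HDM rats was seen for 7, most of all S100a8 (log2 fold change 4.66) and S100a9 (3.83). It was lower for 2, Ngp (-0.85) and Camp (-0.61). The median over the 9 was 0.61, and none was called. All 6 macrophage markers had a higher mean in HDM rats (median log2 fold change 0.63, none called). Their summed level overlapped between the groups, at 9.07 to 30.2 and 6.53 to 18.2. Among the HDM rats it was highest in HDM rat 4, the lowest for Mt2A, and lowest in HDM rat 1. The part of both cell types in the values of Mt2A was not tested.

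Mt1 in adipose tissue was 3.57, 3.15 and 2.92 in control rats 1, 2 and 3 and 3.95, 2.28, 3.48, 2.34 and 2.75 in HDM rats 1 to 5. HDM rats 1 and 3, the highest for Mt2A, were also the highest HDM rats for Mt1, while the other 3 lay below all control rats. The difference was -0.25 (SE 0.42, adjusted p 0.837), and it was 0.04 when the arrays were scaled to their medians. Leaving out 1 rat at a time gave -0.50 (without HDM rat 1) to -0.075 (without control rat 1).

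Mt3 was set apart by 2 rats, and was well above background on 4 of 5 HDM arrays and on all 3 control arrays. Its adipose signal was 1.20 in control rat 1 and 1.05 in HDM rat 1, and between -3.94 and -2.63 in the other 6 rats. These were the rats with the high epididymis markers, and Mt1 was likewise highest and Slc39a8 lowest of its group in both of them. Of all probes, 18.6% were highest of their group in both rats and 16.8% lowest. Of the 28 zinc genes measured, 8 were highest in both (Mt1, Mt3, Slc30a5, Slc30a7, Slc39a2, Slc39a6, Slc39a7 and Slc39a11) and 3 lowest (Slc39a3, Slc39a4 and Slc39a8). Slc39a2 was well above background on 0 of 8 adipose arrays, so that its rank is one of background signals. Mt3 changed by -1.34 (SE 1.42), and without both rats it was -0.96 with an adjusted p of 0.472. The part of the epididymis markers in these values was not tested beyond leaving out the rats.

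Slc39a8 had adipose signals of 2.63, 3.47 and 4.37 in control rats 1, 2 and 3 and of 1.78, 3.78, 2.93, 4.40 and 3.66 in HDM rats 1 to 5, with a log2 fold change of -0.18 (SE 0.62) and -0.24 without control rat 1 and HDM rat 1. Slc39a14 was well above background on 4 of 5 HDM arrays and 2 of 3 control arrays. Its signal ranged from -3.52 to -2.65 in HDM rats and was -4.29, -2.29 and -2.54 in control rats 1, 2 and 3. The log2 fold change of -0.16 (SE 0.45) became -0.74 without control rat 1 and HDM rat 1 (adjusted p 0.697), and -0.79 without control rat 1 alone. Slc30a1 changed by -0.01 (SE 0.17) and the brightest probe of Mtf1 by -0.09 (SE 0.14).

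None of the 45598 probes was called in adipose tissue (0%), where the lowest adjusted p over all probes was 0.0853. The methods' t-test, here also adjusted over all probes, called 0 as well. With limma adjusted only over the probes past 1.5-fold, 28 probes were called, 0 of them members. At an unadjusted p below 0.05 there were 0 of the 7 members, beside 9.9% of all probes, and 0 of 7 separated the groups, beside 6.22%. The former count was 2 when control rat 1 and HDM rat 1 were both left out. It was 1 without either of them alone, with median scaling, and with the rat as a random block over both tissues. The median log2 fold change was -0.16 over the members and -0.15 over all probes, and the latter became 0.14 when the arrays were scaled to their medians, so that small adipose differences carry no direction. With that scaling Mt1, Mtf1, Slc30a1, Slc39a8 and Slc39a14 changed sign, while Mt2A was at 0.99 and Mt3 at -1.04.

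**Figure D3:**
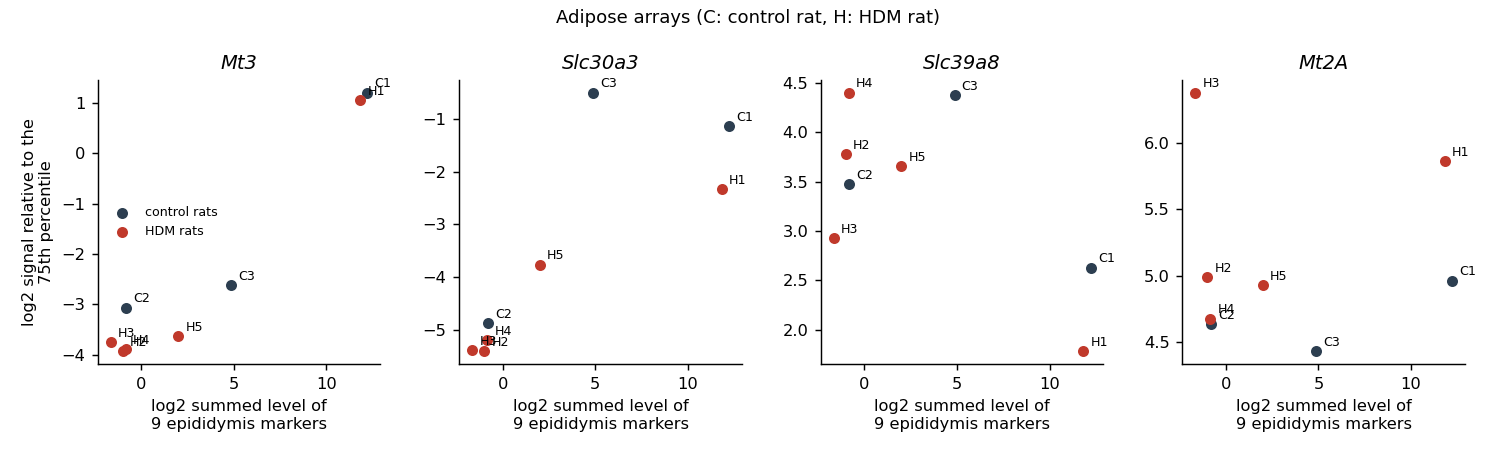
Adipose log2 signal of Mt3, Slc30a3, Slc39a8 and Mt2A (vertical axes) against the log2 summed level of 9 epididymis markers (horizontal axes), 1 point per rat, with C for control and H for HDM rats. Mt3 reaches 1.20 and 1.05 only in control rat 1 and HDM rat 1, Slc39a8 is lowest in each group there, and Mt2A is highest in HDM rat 3, whose markers are lowest.

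The change in lung was set against the change in adipose tissue by subtracting, in each rat, the adipose value from the lung value, with the arrays paired by the rat number in the labels. Deviations from the group mean, over the probes with a value on every array, correlated between -0.10 and 0.11 in the lung and adipose arrays of 1 rat, and the own pair correlated best in 2 of 8 rats. Mt2A had the clearest contrast of the members, with -0.49 in lung and 0.69 in adipose tissue. The difference of -1.18 (SE 0.39, 95% interval -2.09 to -0.28) had an unadjusted p of 0.0168 in limma but an adjusted p of 0.559 over all probes. Without the pairing Mt2A gave the same value, with an adjusted p of 0.488. It stayed negative in all 19 alternative settings, from -1.53 to -0.95, and was called in none. Its unadjusted p lay below 0.05 in 17 of them, the exceptions being the fits without control rat 3 and without both control rat 1 and HDM rat 1. For Mt1 the difference was -0.17 (SE 0.44), and the other members had unadjusted p of 0.286 or more. By this test 1 of 7 members lay below an unadjusted p of 0.05, beside 7.74% of all probes, and 0 of 7 below an adjusted p of 0.05, beside 0.00219%.

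Levels in the tissues of the same rat were compared relative to the 75th percentile of each array. Other normalizations of these levels were not tested. The percentile was 388 to 438 on control lung arrays and 111 to 227 on control adipose arrays. On the scaled values Mt2A was lower in lung than in adipose tissue in 8 of 8 rats. In control rats the gap was 1.39 ± 0.25 (SD, n = 3) log2 units. Slc30a1 was likewise lower in lung in 8 of 8 rats, by 0.87 ± 0.25 (SD, n = 3) in control rats. Slc39a8 was lower in lung in 7 of 8 rats and Mt1 higher in lung in 6 of 8. Before scaling, the signal of Slc30a1 was 207, 241 and 197 in the lungs of control rats 1, 2 and 3. Their adipose tissue gave less, 125, 147 and 174. For Mt2A these lungs gave 4102, 3830 and 3894, and their adipose tissue 3450, 3464 and 4892. In HDM rats unscaled Mt2A stayed lower in lung (2661 to 3961) than in adipose tissue (4804 to 17186). The direction for Slc30a1 thus depends on the scaling, as does the gap of Mt2A in control rats. Each tissue was on its own slide, so that tissue and slide cannot be told apart.

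**Figure D4:**
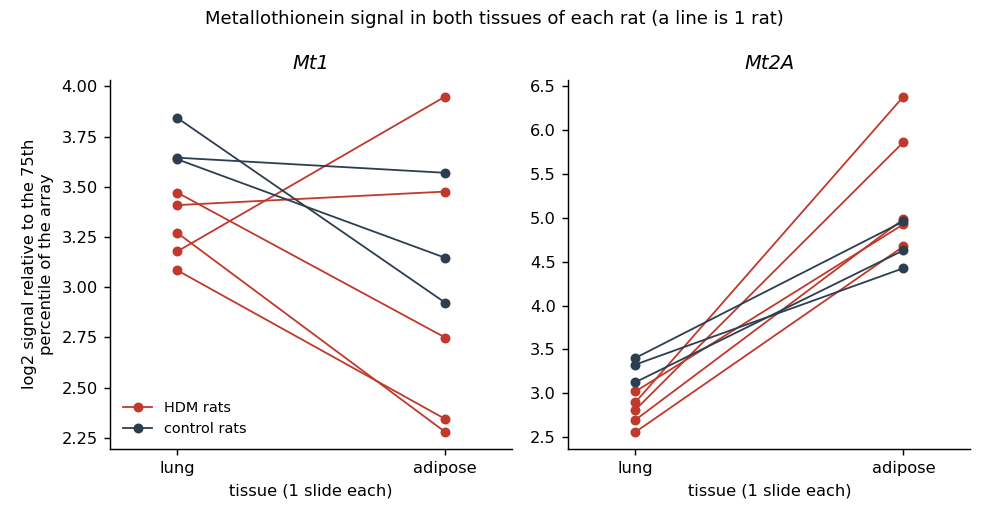
Log2 signal of Mt1 (left) and Mt2A (right) relative to the 75th percentile of the array in the lung and the adipose tissue of each rat, with a line for each rat. All 8 lines of Mt2A rise from lung to adipose tissue, between 1.10 and 3.48 log2 units, and those of Mt1 run in both directions.

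The wider zinc system was followed with a list of 29 genes, the members among them, of which 28 had a probe and 25 were well above background on all 8 lung arrays. In lung 1 of the 28 was called, lower in HDM rats, beside 0.373% of all probes. It was Slc30a3, a transporter that loads zinc into synaptic vesicles in neurons. Its lung signal was -0.03, -0.02 and -0.00 in control rats 1, 2 and 3, and in HDM rats 1 to 5 it was -1.06, -1.01, -1.19, -0.72 and -0.87. The log2 fold change of -0.95 (SE 0.13, adjusted p 0.0189) was 1.93-fold lower, and HDM rat 5 differed by -0.85 from the control rats of its row. The call was lost in 7 of 22 alternative settings, among them the block for the row (adjusted p 0.397) and leaving out HDM rat 1, HDM rat 2 or any of the control rats, with the difference between -0.96 and -0.85 in those.

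The importers Slc39a1 and Slc39a3, which take up zinc at the cell surface, were the list's genes that were higher in the lungs of HDM rats without overlap. Slc39a1 was 3.47, 3.43 and 3.45 in control rats 1, 2 and 3 and between 3.65 and 3.72 in HDM rats, a difference of 0.24 (SE 0.09, adjusted p 0.371). Slc39a3 changed by 0.35 (SE 0.12, adjusted p 0.310). Neither was called, and 4.63% of all probes were higher without overlap. Over the list 9 genes had a higher and 19 a lower mean in HDM rats, with 2 and 4 of them at an unadjusted p below 0.05, beside 5.25% and 4.93% of all probes, and the median log2 fold change was -0.07.

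In adipose tissue 0 of the 28 genes were called and 19 were well above background on all 8 arrays. Slc39a5, an importer known from intestine and pancreas, was -0.51, -0.72 and -0.37 in control rats 1, 2 and 3 and between -1.74 and -1.22 in HDM rats. Its log2 fold change was -0.92 (SE 0.18) with an adjusted p of 0.263, and its second probe overlapped between the groups. Mt4, the metallothionein of squamous epithelia, had adipose signals of -3.66, -3.04 and -4.05 in control rats 1, 2 and 3 and from -4.71 to -4.31 in HDM rats. It was well above background on 2 of 3 control arrays and on 0 of 5 HDM arrays, and was not called (adjusted p 0.303). These were the list's genes that did not overlap between the groups, beside 4.69% of all probes that were lower without overlap. With Slc30a2 and Slc30a10, whose groups overlapped, 4 of the 28 genes were lower at an unadjusted p below 0.05, beside 8.88% of all probes, and Slc30a10 was well above background on no array.

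Slc30a3 in adipose tissue was -1.13 and -0.50 in control rats 1 and 3 and -2.33 and -3.76 in HDM rats 1 and 5, and between -5.41 and -4.88 in the other 4 rats, where it was not well above background. The 4 rats with signal were also those with the highest summed epididymis markers. The log2 fold change of -2.25 (SE 1.12) had an adjusted p of 0.562. It was -1.41 without control rat 3 and -3.60 without control rat 2, and -0.87 with the normexp background correction.

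**Figure D5:**
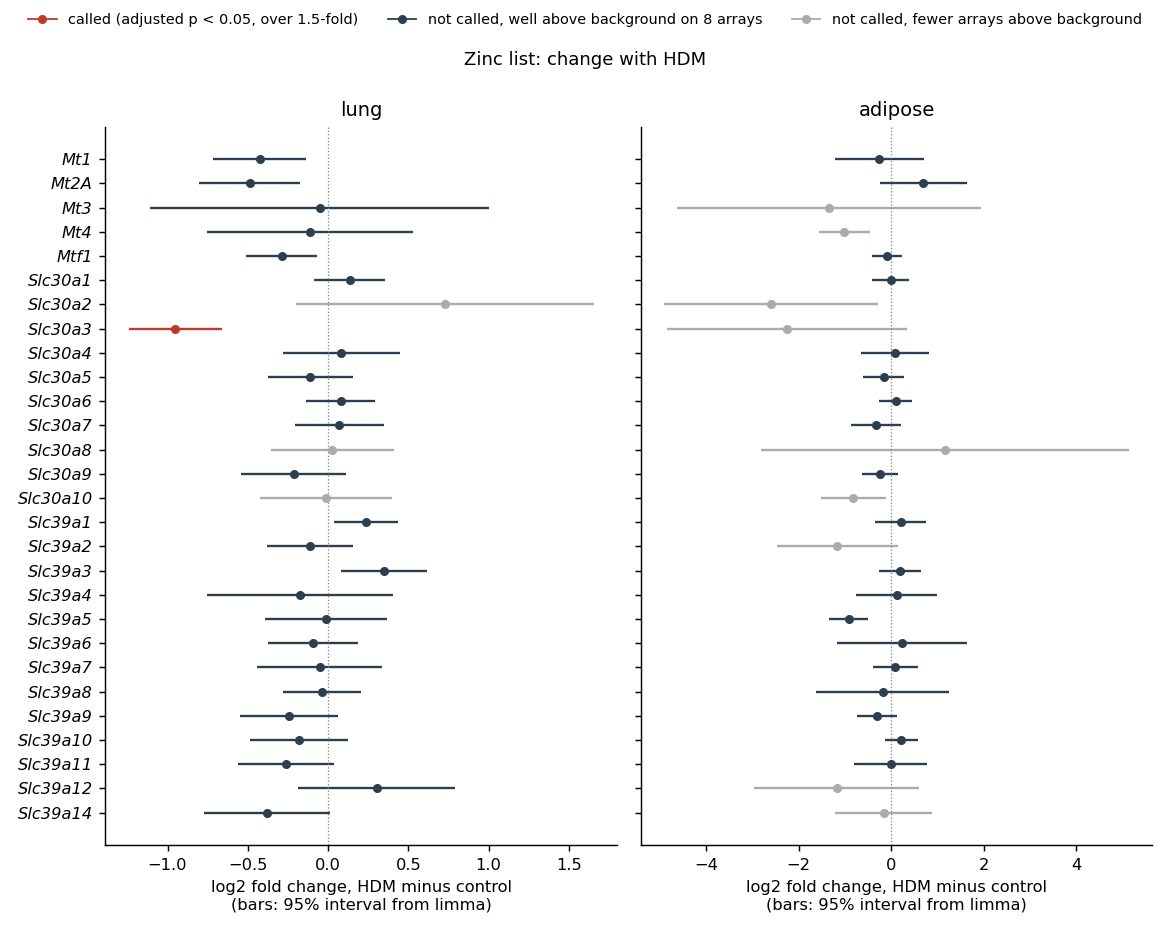
Log2 fold change (HDM minus control) of 28 zinc genes in lung (left) and adipose tissue (right, wider axis), brightest probe of each, with the 95% interval from limma. Slc30a3 in lung is the called gene, and gray points stand for genes well above background on fewer than 8 arrays of the tissue, where the value is less certain.

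Other metal genes and known inducers were looked at beside them. Of 21 copper and iron genes, 2 were called in lung, both higher in HDM rats, beside 0.482% of all probes: Steap4, a metalloreductase for iron and copper (2.75-fold, adjusted p 0.00431), and Tf, which encodes transferrin (2.30-fold, adjusted p 0.00726). Of 17 genes for known inducing signals of metallothioneins and for reporters of those signals, 4 were called in lung, beside 0.855% of all probes. All 4 were reporters, and no gene for a signal itself was called. Fkbp5, Per1 and Klf9, known targets of the glucocorticoid receptor, were 6.86-fold (adjusted p 0.000134), 4.01-fold (adjusted p 0.0401) and 2.37-fold (adjusted p 0.0235) lower in HDM rats. Socs3, induced by cytokines that signal through STAT3, was 2.27-fold higher (adjusted p 0.0369). The second probes of Per1 (-1.26 on the log2 scale, adjusted p 0.393 in limma) and Socs3 (0.90, adjusted p 0.111) kept the direction and were not called. With the row as a block, a fit that rests on HDM rat 5 alone, Fkbp5 was at -2.83. The other 5 of these 6 genes lost their calls there, with the direction kept. Over 22 alternative settings the call was lost in 0 for Fkbp5, 1 for Steap4, 2 for Tf, 7 for Klf9, 8 for Per1 and 12 for Socs3. The methods' t-test gave adjusted p of 0.0569 for Socs3 and 0.0725 for Per1. Leaving out any 1 rat other than HDM rat 1 ended the call of Socs3 (1.10 to 1.26). Per1 lost its call without any 1 of the control rats or without HDM rat 1, 2 or 5 (-2.03 to -1.81), Klf9 without any 1 of the control rats or without HDM rat 1 or 2 (-1.26 to -1.17), and Tf without control rat 2 (1.19). In adipose tissue none of the genes of these lists was called. There Fkbp5 differed by -2.04 on the log2 scale without overlap between the groups, and its adjusted p of 0.0853 equalled the lowest over all probes.

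The genes whose patterns were most like those of Mt1, Mt2A and Slc39a14 were sought among 9776 symbols well above background on all 16 arrays, by Pearson correlation over the 16 arrays after centering each tissue. Mt1 was followed by 1700009N14Rikl, Prkar1b and Cmtm8, each with r = 0.88. In lung and adipose tissue these had r = 0.83 and 0.90, 0.40 and 0.95, and 0.94 and 0.88. Mt2A was followed by Taf5l1 (r = 0.91), Rasa1 (r = 0.83) and Pigl (r = 0.82). Of these, Rasa1 had r = 0.15 in lung and 0.93 in adipose tissue, and Pigl 0.50 and 0.97. Slc39a14 was followed by Syde2 (r = 0.92), Ifngr1 (r = 0.90) and Mustn1 (r = 0.90). The arrays share the groups, the slides and the rats, and the 3 highest of so many correlations are given as a description.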

How the data were processed

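Lung and adipose tissue of 5 HDM rats and 3 control rats were measured on 16 one-color arrays, grouped by their labels. The authors deposited linear spot intensity values for each array (Agilent Feature Extraction, version 12.0.3.1), corrected for background and spatial trends but not normalized between arrays. A second deposited file holds log2 values from GeneSpring GX, of which 99.9% lay within 0.1 of the intensities scaled to the 75th percentile and centered by probe, and which served as an alternative. In it 39 cells held no number and were treated as missing. All its sample columns were used.

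The main values are log2 deposited intensities without control probes and outlier spots, averaged over the spots of a probe, minus the 75th percentile of the array. Symbols came from the RefSeq transcript of each probe and a table of 47357 rat genes (GRCr8). Group differences were fitted in 1 tissue at a time with limma 3.58.1 (lmFit, eBayes) in R 4.3.3, with Benjamini-Hochberg adjustment over all 45598 probes. A probe was called at an adjusted p below 0.05 and over 1.5-fold, the thresholds of the study's methods, whose t-test was an alternative. The difference between tissues was tested with limma on lung minus adipose values of each rat. Exact permutation tests were two-sided over 56 splits, with a smallest p of 0.0179. The fits were tested on simulated data. Alternatives changed the normalization, the background correction, the filter on dim probes, the test, the weights, the blocks and the rats included.

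The members and all gene lists were chosen with earlier results of these data known. Named were the 7 members, zinc genes called or not overlapping between groups at an unadjusted p below 0.05, called genes of the other lists, and the 3 genes most like each of Mt1, Mt2A and Slc39a14. Slc30a2 and Slc30a10 were named after their values were seen. Marker lists covered lung, fat, neutrophils, macrophages, eosinophils, epididymis, muscle and erythrocytes. Plots came from matplotlib 3.10.9 (Python 3.11.15).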

Additional observations from a re-analysis of the deposited data

Results flagged for a closer look

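Each of 29 sets of values held 1 probe in 1 tissue over the same 5 HDM rats. In 4 of the 29, 1 rat stood far from the others. Its gap to the nearest rat took up more of the whole range than Dixon's test allows at the 95% level. Chance gives about 1 in 20 for independent sets, but these sets share their rats and are not independent. Among the members, HDM rat 1 had the highest adipose signal of Mt3 (1.05 on the log2 scale, nearest rat -3.64, gap over range 0.940), with all 9 epididymis markers above background in the same array. HDM rat 4 had the highest lung signal of Mtf1 (0.19, nearest rat 0.06, gap over range 0.727), and it lay below the lowest control rat all the same (0.30). Mt4 in adipose tissue was highest in HDM rat 2 (-4.31, nearest -4.61), though not well above background in any HDM rat. Steap4 was highest in HDM rat 3 in lung (2.14, nearest 1.90).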

How the results depend on the processing

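The count of members called stayed at 0 in 67 of 68 alternative fits. The exception was lung with Mtf1 read from the probe A_44_P1085442, where 1 was called. Lower signals of Mt1 and Mt2A in lung kept their direction in all 22 settings (-0.54 to -0.24 and -0.60 to -0.26), with adjusted p from 0.0773 to 1 and from 0.0513 to 1. Of 452 alternative values of the members, 39 had the opposite sign, all for values smaller than their standard error.

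In lung, Slc39a8 was 0.00515 with quantile normalization and 0.00023 with the percentile taken over probes above background. Mt3 was 0.17 with array weights and 1.07 with the row as a block. In adipose tissue, scaling to the median gave 0.041 for Mt1, 0.21 for Mtf1, 0.28 for Slc30a1, 0.11 for Slc39a8 and 0.13 for Slc39a14. Quantile normalization gave 0.20 for Slc39a14, normexp 0.00694 for Slc30a1, array weights 0.060 for Slc30a1, the row as a block 0.018 for Mtf1 and 0.16 for Slc39a8, and leaving out control rat 1 and HDM rat 1, a setting chosen after seeing the data, 0.11 for Slc30a1. For lung minus adipose change, scaling to the median gave -0.20 for both Slc30a1 and Slc39a8, array weights -0.021 for Slc39a8 and 0.18 for Slc39a14, and leaving out both rats 0.41 for Slc39a14. The cause was not tested.

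Leaving out 1 rat at a time gave -0.33 to 0.21 for Mt3 and -0.074 to 0.014 for Slc39a8 in lung. In adipose tissue it gave -0.50 to -0.075 for Mt1, -2.31 to 0.012 for Mt3, -0.18 to 0.10 for Slc30a1, -0.62 to 0.26 for Slc39a8 and -0.79 to 0.21 for Slc39a14. For the difference between tissues it gave -0.38 to 0.10 for Mt1, -0.16 to 2.22 for Mt3, -0.33 to 0.57 for Slc39a8 and -0.59 to 0.35 for Slc39a14.

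Over all probes, the 390 calls in lung ranged from 25 (row as a block) to 1329 (adjustment only over probes past 1.5-fold), and in adipose tissue the 0 calls became up to 106 (rat as a random block over both tissues). Fkbp5 in adipose tissue was called in 5 of 23 settings and Slc39a5 in 1. HDM and control rats with the same number are different animals. Deviations of same-numbered rats had correlations from -0.08 to 0.05 in lung, and in adipose tissue from 0.10 to 0.59, so the numbers were not taken as pairs. With the replicate block, 0 members were called in lung, of 369 calls, and 0 in adipose tissue, of 21. For the difference between tissues, the fit with no replicate block called 0 members, of 20 calls. Signal over background limits Slc30a8, Slc30a10, Slc30a2, Slc39a2 and Mt4, which stood at or near background in at least 1 group.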

Other observations

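Slc30a8, known from pancreatic beta cells, had an adipose signal of 0.76 in HDM rat 2 with its probe A_44_P1107613, well above background, against -6.80 to -5.95 in the other 7 rats. Its second probe A_64_P056861 gave -5.74 in the same rat, within the range of the others. HDM rat 2 also had the most outlier spots of the adipose arrays (1224, against 355 to 444 in the others). The gene was singled out after its values were seen.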
